A study of Mus musculus with 4 samples.

Results

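The genes described here are 34 genes of glycolysis and of the response to low oxygen, chosen by gene symbol: carriers of glucose and lactate, the enzymes that turn glucose into lactate, the kinases that hold pyruvate back from the mitochondria, HIF-1α with its prolyl hydroxylases, and genes induced in hypoxia. The tables used here hold 44 probes for 30 of them. Pkm2 and Ero1l are listed under their newer symbols Pkm and Ero1a, and Hk2, Gpi1, Eno1 and Ldhb were not analysed here. A probe was kept where its detection p was under 0.05 on 2 or more of the 4 arrays. This left 35 probes of 27 genes, out of 14178 probes of 9948 genes kept in all.

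RNA came from mouse bone marrow cells depleted of mature lineages (Lin-), all labelled WT (wild type). In 2 samples the cells carried FLT3-ITD, the internally duplicated form of the receptor tyrosine kinase FLT3 that occurs in acute myeloid leukaemia, and had been exposed to its signalling for 48 h. In the other 2 they carried the empty vector pMIG. The sources used here give no strain, age or number of mice and do not say whether replicates were separate cultures or how the genes were delivered, so p-values measure the spread between these samples alone, which may be technical.

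Glycolysis breaks glucose down to pyruvate in the cytosol and yields ATP without oxygen. Lactate dehydrogenase then reduces pyruvate to lactate, which leaves the cell through monocarboxylate carriers. HIF-1α is a transcription factor subunit that prolyl hydroxylases (the Egln genes) mark for degradation when oxygen is present. When it is stable it binds DNA with its partner ARNT and raises genes of glycolysis, vessel growth and mitophagy. Growth factor signalling can also raise glycolysis with oxygen present, as in many leukaemic cells, and the marrow is itself a tissue of low oxygen.

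Between 51.5% and 53.5% of the 26512 probes were detected per array, and median raw intensities lay between 103.1 and 107.9. Of 6 progenitor genes with a detected probe (Cd34, Myb, Gata2, Meis1, Mpo and Elane), all 6 were detected on all 4 arrays, while the Flt3 probe was detected on none and Kit was not analysed here. All 8 neutrophil genes of the marker list, among them Ltf, Ngp and Camp, were detected on all 4 arrays too, although the cells were labelled lineage-negative. Signals below are log2 values after background correction and quantile normalization. Since bead probes differ in brightness, differences are taken between arrays for 1 probe. Levels of different probes are used only to choose the brightest probe of a gene, to describe the brightness of a set and to sum markers. Such sums weigh bright probes most.

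No glycolysis or hypoxia probe passed the test for a difference between FLT3-ITD and pMIG. In limma's default fit, 0 of the 35 probes reached an adjusted p of 0.05, against 0.106% of all probes kept. Before adjustment 2 were higher at p under 0.05 (Pkm and Slc2a3; 8.41% of all probes were) and 3 were lower (Hif1a, Bnip3l and 1 probe of Vegfa; 8.29% of all probes were). The median difference of the 35 was -0.03 on the log2 scale, against -0.01 for all 14178 probes, and single differences ran from -0.67 to 0.61. With 2 arrays a group, the smallest p that an exact permutation test allows is 0.333, and limma reaches lower values by pooling variance information over probes.

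When limma instead let the spread depend on signal (a variance trend), 5 of the 35 passed. The 35 probes were brighter than all probes kept (median log2 signal 8.80 against 6.66), so the shares below come from a dimmer set. The part of signal level in these calls was not tested. Pkm, Slc2a3 and Aldoa were higher, where 4.10% of all probes passed as higher. Bnip3l and 1 probe of Vegfa were lower, where 3.82% of all probes passed as lower. Both groups of arrays stood apart, with no overlap, for 12 probes in the upward direction (23.8% of all probes) and 10 in the downward direction (25.6% of all probes), and overlapped for 13. The 5 probes that depend on this choice, with Hif1a and the other Vegfa probe, are described first.

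Pkm encodes the muscle-type pyruvate kinase, which makes pyruvate and ATP in the last step of glycolysis. Its probe (ILMN_2756041) read 13.10 and 13.02 with FLT3-ITD, against 12.57 and 12.62 with pMIG. Both FLT3-ITD arrays lay above both controls, a 1.38-fold difference (log2 0.47, SE 0.12, adjusted p = 0.203; 0.00021 with the variance trend). The array does not show here which splice form of Pkm the probe reads. Slc2a3 encodes the glucose carrier GLUT3, and its probe read 10.82 and 10.80 in FLT3-ITD against 10.44 and 10.46 in pMIG. The arrays of each group were close together, and the difference was 1.29-fold (log2 0.36, SE 0.11, adjusted p = 0.241; 0.00538 with the trend). Aldoa encodes the aldolase that splits fructose bisphosphate. It read 12.15 and 11.95 against 11.68 and 11.75, a 1.26-fold difference (log2 0.33, SE 0.13, adjusted p = 0.308; 0.0108 with the trend), with no overlap between the groups.

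Vegfa, the growth factor that drives vessel growth, was lower on both of its kept probes. Probe ILMN_3121255 read 7.37 and 7.09 with FLT3-ITD against 7.71 and 8.09 with pMIG, 1.59-fold lower (log2 difference -0.67, SE 0.19, adjusted p = 0.22; 0.014 with the trend). Probe ILMN_2484527 read 8.68 and 8.59 against 8.87 and 9.07, 1.27-fold lower (log2 difference -0.34, SE 0.13, adjusted p = 0.308; 0.0656 with the trend). Neither probe had overlapping groups, and a Vegfa probe that no array detected (ILMN_3045723) gives no further reading. Bnip3l encodes a receptor that marks mitochondria for removal, a step of red cell maturation as well as of hypoxia. It read 10.18 and 10.27 with FLT3-ITD against 10.63 on both pMIG arrays, 1.32-fold lower (log2 difference -0.40, SE 0.11, adjusted p = 0.22; 0.00319 with the trend). Hif1a itself read 5.61 and 5.54 with FLT3-ITD against 6.40 and 5.87 with pMIG. The pMIG arrays lay nearly as far from each other as the group means did (difference -0.56, SE 0.21, adjusted p = 0.292; 0.205 with the trend). The Hif1a difference was -0.29 without pMIG replicate 1 and -0.24 without background correction.

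**Figure D1:**
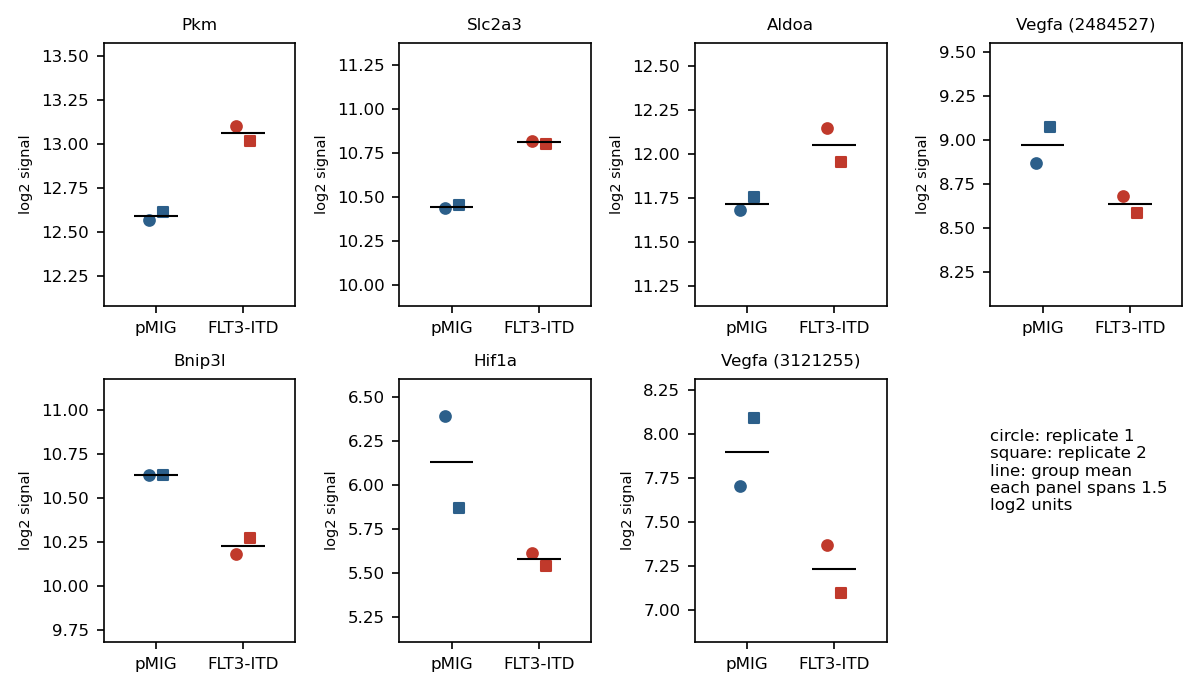
Log2 signal on each array for 7 probes, with pMIG in blue, FLT3-ITD in red, circles for replicate 1, squares for replicate 2 and lines for group means; every panel spans the same range of log2 signal but has its own centre. Pkm, Slc2a3 and Aldoa are higher on both FLT3-ITD arrays, and Bnip3l, Hif1a and both Vegfa probes are lower on both.

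Promoters of these genes are shown for the HIF core motif, since HIF-1α binds near that core. The search covered the 250 bases before each annotated start in the RefSeq promoter table (GRCm38.p6), on both strands, for ACGTG, which reads CACGT from the other strand. Where both strands match at once, the letters form CACGTG, also the E-box that MYC and other factors read. Of 27 genes with a kept probe, 24 had promoters in the table, and 16 of these 24 genes (66.7%) held ACGTG before at least 1 start, against 18.5% of all 27025 genes. Those with no entry are Slc2a3, Bnip3l and Ndrg1. By promoter, 52.8% of 36 held ACGTG, against 16.6% of 32851. GCGTG, another form of the core, is not marked below. It stood before at least 1 start in 70.8% of the 24 genes and 30.9% of all genes. All genes here include those with no detected probe, while each of the 24 had a kept probe. For this reason, and since the genes were listed partly for their response to hypoxia, these shares are no test of the list. The promoters below belong to genes named above, 2 that read higher in FLT3-ITD and 2 that read lower, each 5′ to 3′ on the gene's strand, with each match in capitals.
Pkm, chr9:59656977-59657226, plus strand: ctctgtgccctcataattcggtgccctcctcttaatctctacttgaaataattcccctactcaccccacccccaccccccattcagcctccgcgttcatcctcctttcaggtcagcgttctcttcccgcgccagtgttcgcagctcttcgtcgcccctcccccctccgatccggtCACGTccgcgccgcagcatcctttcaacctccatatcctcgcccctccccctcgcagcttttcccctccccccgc
Aldoa, chr7:126799179-126799428, minus strand: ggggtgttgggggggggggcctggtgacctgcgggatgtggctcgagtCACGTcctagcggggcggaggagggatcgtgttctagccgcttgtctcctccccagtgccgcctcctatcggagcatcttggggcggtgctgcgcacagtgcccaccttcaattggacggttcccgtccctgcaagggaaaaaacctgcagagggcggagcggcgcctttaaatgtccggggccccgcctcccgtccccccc
Hif1a, chr12:73907617-73907866, plus strand: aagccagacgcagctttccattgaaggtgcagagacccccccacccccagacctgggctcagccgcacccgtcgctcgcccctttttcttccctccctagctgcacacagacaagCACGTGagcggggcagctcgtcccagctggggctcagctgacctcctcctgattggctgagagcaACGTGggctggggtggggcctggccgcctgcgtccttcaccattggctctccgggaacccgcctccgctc
Vegfa, chr17:46032378-46032627, minus strand: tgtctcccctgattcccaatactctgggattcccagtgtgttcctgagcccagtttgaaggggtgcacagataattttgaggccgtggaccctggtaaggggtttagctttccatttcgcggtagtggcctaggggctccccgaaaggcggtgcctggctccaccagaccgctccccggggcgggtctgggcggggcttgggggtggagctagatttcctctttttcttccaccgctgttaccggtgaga
Pkm and Aldoa each hold 1 match on the reverse strand, Hif1a holds 1 CACGTG and 1 further ACGTG, and the Vegfa window holds no match. Another annotated start of Pkm has none before it, and another of Vegfa has 1. Which start was in use was not measured, and a match of letters is not a bound site. Aldoa has another start with the same match before it and one with none.

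Among the carriers, the glucose carrier gene Slc2a1 (GLUT1) read 10.49 and 10.65 with FLT3-ITD against 10.40 and 10.22 with pMIG. The groups did not overlap, and the difference of 0.26 did not pass (SE 0.13, adjusted p = 0.406). Slc16a3 encodes MCT4, which exports lactate, and its kept probes disagreed. ILMN_3149256 read 5.43 and 4.76 against 4.67 and 4.30, the largest positive difference of the 35 at 0.61, but the FLT3-ITD arrays lay farther from each other than the group means did (SE 0.28, adjusted p = 0.354). It was 0.19 without background correction and 0.27 without FLT3-ITD replicate 1. The second probe (ILMN_3163569) had overlapping groups and a difference of -0.11.

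The 15 probes of the upper steps of glycolysis had a median difference of -0.04, with 3 apart upward, 4 apart downward and 8 overlapping. These counts lie near the shares of all probes that stood apart, 23.8% upward and 25.6% downward. Hexokinases trap glucose by phosphorylation. Hk1 read 5.86 and 5.15 with FLT3-ITD against 5.77 and 6.05 with pMIG, with overlapping groups and the widest interval of the group (difference -0.41, 95% interval -1.13 to 0.32). The Hk1 difference was -0.05 without FLT3-ITD replicate 2, -0.76 without FLT3-ITD replicate 1 and -0.15 without background correction. Hk3, the hexokinase found in myeloid cells, read 11.29 and 11.37 against 11.37 on both pMIG arrays, a difference of -0.04 (95% interval -0.34 to 0.27).

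Phosphofructokinase catalyses the committed step, and its 3 subunit genes were each read by 1 or more probes. Pfkl, the liver-type subunit, differed by -0.21 and was apart downward, from 11.33 and 11.21 in pMIG to 11.20 and 10.93 in FLT3-ITD. The Pfkl difference was -0.07 without FLT3-ITD replicate 2 and -0.34 without FLT3-ITD replicate 1. The muscle-type Pfkm differed by -0.28, -0.15 and -0.03 on 3 probes, all on the same side, with the groups apart on the first pair. The platelet-type Pfkp differed by 0.00053 and 0.14 on 2 probes with overlapping groups. None of these passed before adjustment. Pfkfb3 and Pfkfb4 make the regulatory fructose bisphosphate that activates phosphofructokinase. Pfkfb4 read 9.90 and 9.81 against 9.90 and 9.92 (difference -0.05, 95% interval -0.36 to 0.25), and Pfkfb3, near background and detected on 3 of 4 arrays, differed by -0.19.

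Aldoc, a second aldolase gene, read 6.98 and 7.03 with FLT3-ITD against 6.82 and 6.69 with pMIG, on the same side as Aldoa (difference 0.25, adjusted p = 0.369). Triosephosphate isomerase, encoded by Tpi1, was read by 3 probes with differences of 0.08, 0.13 and -0.11, so that its probes did not share a sign. Tpi1 probe ILMN_1230137 had the tightest arrays of the 3, at 13.50 and 13.44 against 13.38 and 13.41.

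In the lower steps, Gapdh, which reduces NAD+ and is often used as a reference gene, read 13.04 and 13.11 with FLT3-ITD against 12.98 and 12.95 with pMIG. The difference was 0.11 (95% interval -0.19 to 0.41). Pgam1, a phosphoglycerate mutase, read 9.90 and 9.74 against 9.73 and 9.81, with overlapping groups and a difference of 0.05. Both intervals include 0 and changes on either side of it, so neither shows that the genes were equal. The single probe of Pgk1, the phosphoglycerate kinase, was detected on no array.

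At the fate of pyruvate, Ldha, the lactate dehydrogenase subunit that favours lactate, read 13.28 and 13.31 with FLT3-ITD against 13.25 and 13.11 with pMIG (difference 0.12, 95% interval -0.20 to 0.44). The pyruvate dehydrogenase kinases, which switch off the entry of pyruvate into the citric acid cycle, differed in opposite directions. Pdk1, a HIF target, read 8.25 and 8.16 against 8.51 and 8.43, a difference of -0.27 (SE 0.12, adjusted p = 0.345). Pdk3 read 9.03 and 9.09 against 8.79 and 8.76, a difference of 0.29 (SE 0.11, adjusted p = 0.307). Both had groups that did not overlap, and neither passed with the variance trend (adjusted p = 0.188 and 0.0916).

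The prolyl hydroxylases also differed in sign. Egln1 (PHD2), the main hydroxylase of HIF-1α, was higher by 0.39 on 1 dim probe (5.35 and 5.18 against 5.05 and 4.71) and by 0.31 on another whose groups overlapped, and these differences were 0.11 and 0.09 without background correction. Egln3 (PHD3), itself induced by HIF, read 9.68 and 9.23 with FLT3-ITD against 9.70 and 9.74 with pMIG. Its difference of -0.27 came mostly from FLT3-ITD replicate 2, without which it was -0.05.

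Of the other hypoxia-induced genes, 3 showed smaller differences than Vegfa and Bnip3l. Ndrg1, a stress-response gene, differed by -0.08 (95% interval -0.42 to 0.26). P4ha1, a collagen prolyl hydroxylase subunit, differed by -0.06 (-0.57 to 0.44), and both had overlapping groups. Ankrd37, a small HIF target, read 6.09 and 6.29 against 6.04 and 5.95, higher by 0.19 with no overlap (adjusted p = 0.528). Bnip3, the relative of Bnip3l, and Ero1a, an endoplasmic reticulum oxidase, were below detection on every array. A probe not detected gives no level, so these 2 genes and Pgk1 were not compared.

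**Figure D2:**
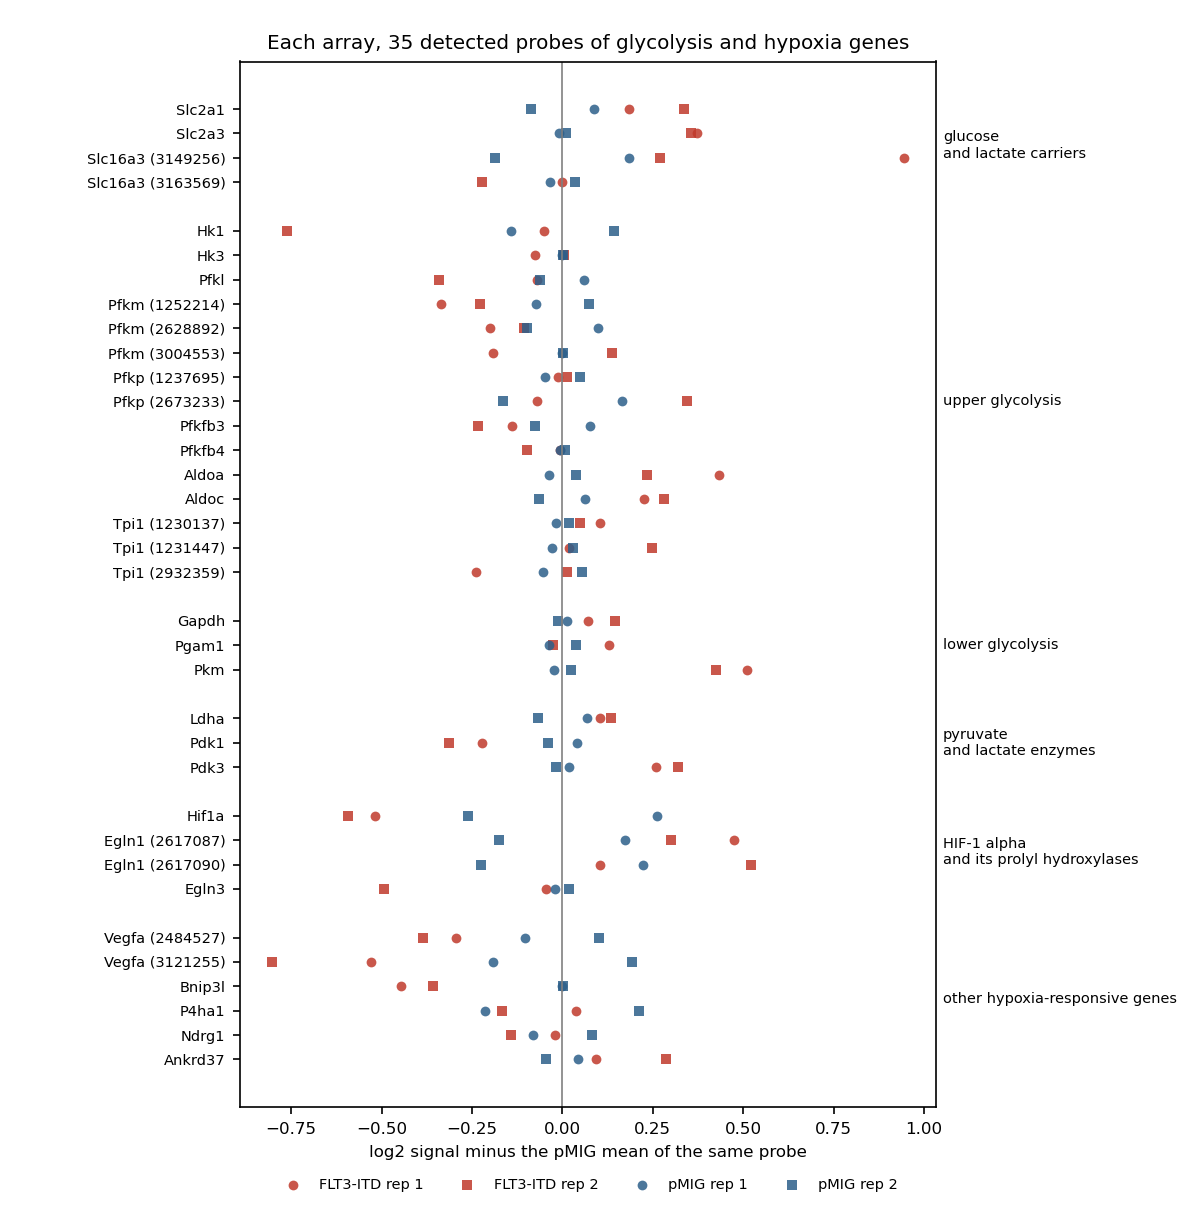
Log2 signal on each array minus the pMIG mean of the same probe, for the 35 kept probes ordered by role (numbers in brackets are the digits of the Illumina probe name, for genes with several probes); red is FLT3-ITD, blue pMIG, circles replicate 1, squares replicate 2. Red points stand to the right for Slc2a3, Aldoa and Pkm and to the left for Hif1a, Vegfa and Bnip3l, and red and blue mix for most upper glycolysis probes.

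**Figure D3:**
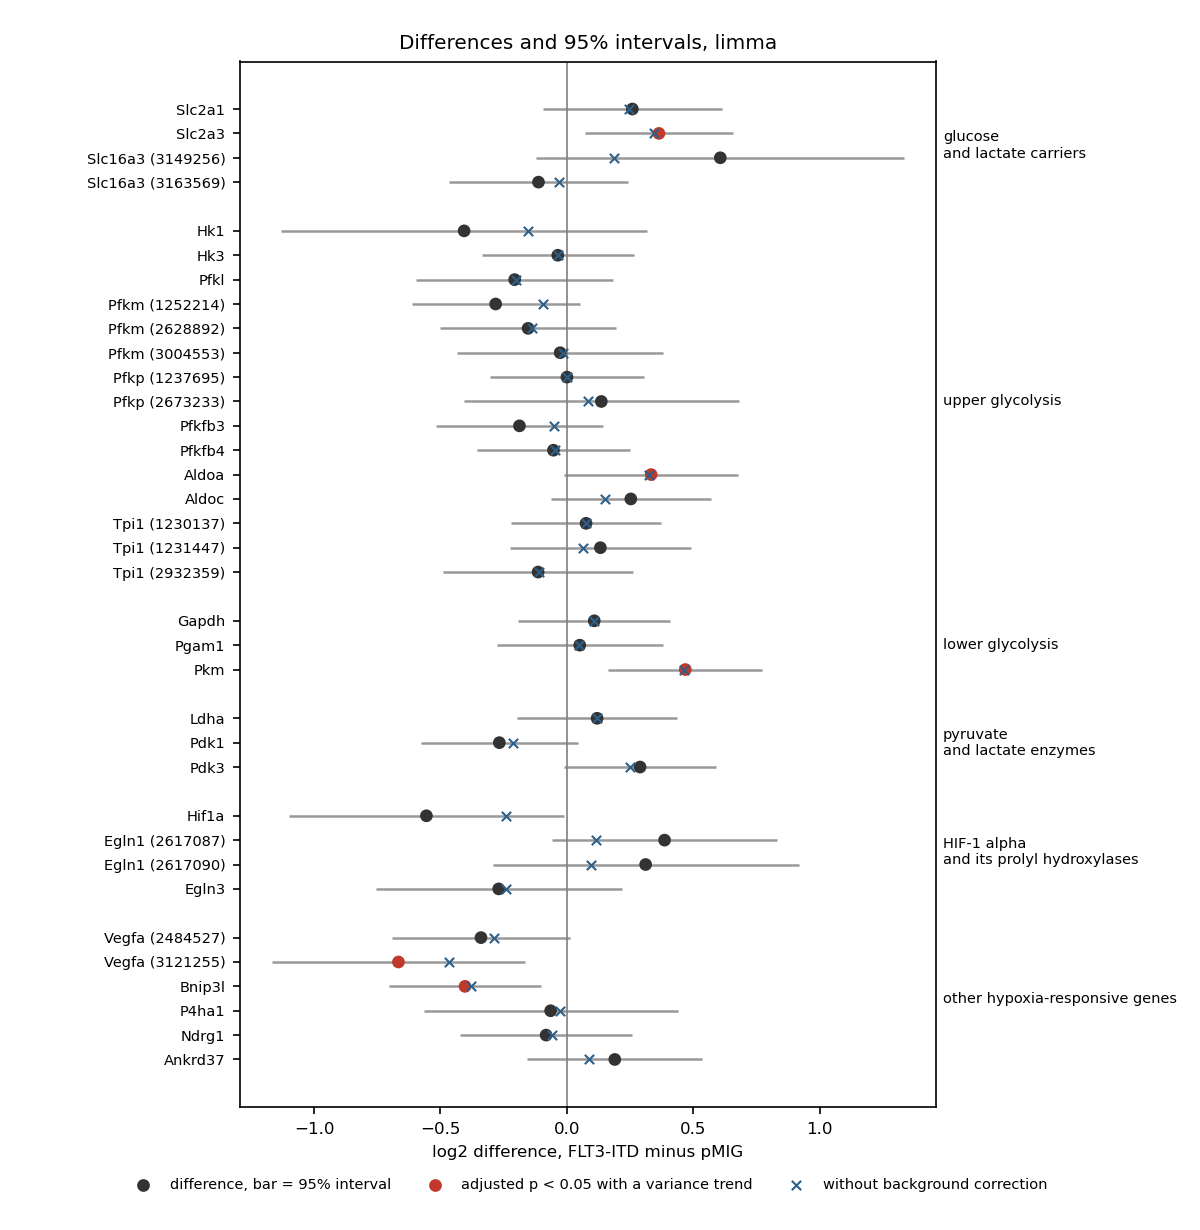
Log2 difference (FLT3-ITD minus pMIG) of the 35 probes with 95% intervals from limma (bars), the same difference without background correction (blue crosses), and in red the 5 probes with an adjusted p under 0.05 under a variance trend. The intervals of 30 probes include 0, and crosses lie nearer 0 for dim probes such as Slc16a3, Hk1 and Hif1a.

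The size of the differences was bounded by the arrays. For 32 of the 35 probes the difference was within 0.5 log2 units of 0, and for 31 the whole 95% interval lay within 1 log2 unit. A 2-fold change in array signal lies outside the interval for those 31 probes. Near background, where signal is compressed, as for Pfkfb3, this does not exclude a 2-fold change in RNA. The median width of an interval was 0.694. The intervals of 5 probes did not include 0, those of Pkm, Slc2a3, Bnip3l, Hif1a and the Vegfa probe ILMN_3121255. The median absolute difference was 0.21 among the 35 probes and 0.19 among all probes kept.

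**Figure D4:**
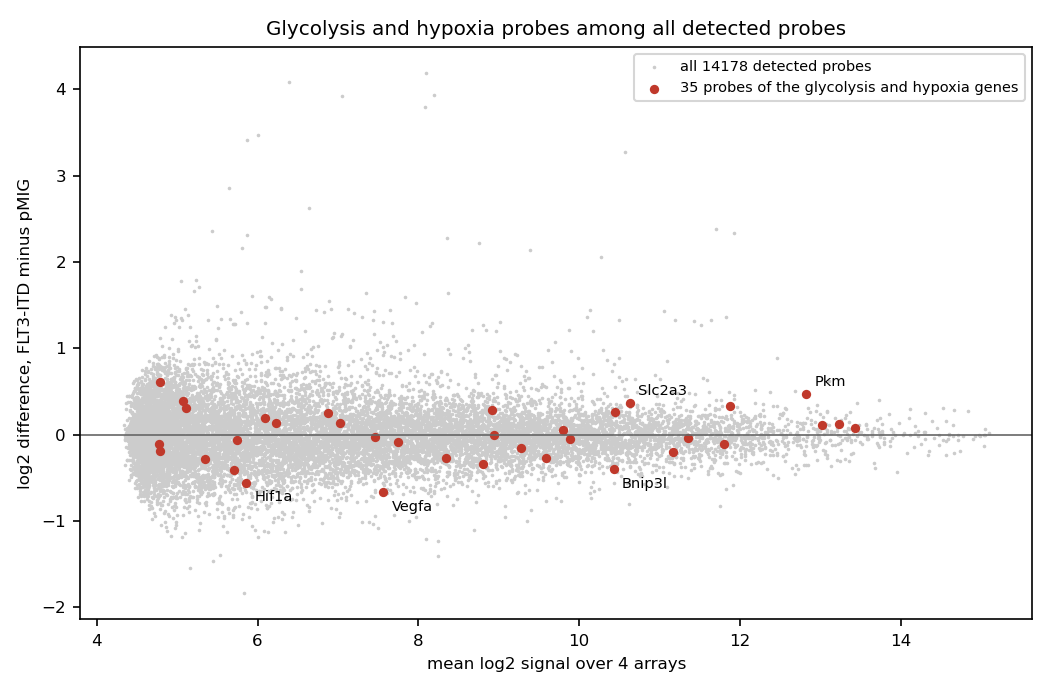
Log2 difference (FLT3-ITD minus pMIG) against mean log2 signal over the 4 arrays for all 14178 kept probes (grey) and the 35 glycolysis and hypoxia probes (red), with names for those at an unadjusted p under 0.05. The red points lie within the grey cloud, between -0.67 and 0.61.

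The rule on detection set the limit of the list. Just inside it were Slc16a3 probe ILMN_3149256 and Pfkfb3, each detected on 3 arrays. Just outside were single probes of Slc16a3, Pfkl and Egln1, each detected on 1 array, an FLT3-ITD array in each case, with raw intensities between 90.9 and 109.9. The other 6 probes left out were detected on no array.

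Other genes of the same pathways were taken from 6 lists, in which 75 of 119 genes had a detected probe, and the brightest probe stood for each gene. None passed at an adjusted p of 0.05 in the fit without a variance trend. With the trend, 4.10% of all probes passed as higher and 3.82% as lower. Passing as higher were 1 other glycolytic enzyme, 1 carrier, 1 HIF subunit or regulator and 3 other HIF targets. Passing as lower were 1 other glycolytic enzyme, 1 pentose phosphate gene and 1 other HIF target. Among other glycolytic enzymes, 12 genes had a median difference of 0.05, with 1 higher and 1 lower before adjustment, near the shares of all probes (8.41% and 8.29%). These were Gpd2, the mitochondrial glycerol phosphate dehydrogenase, at 0.36 (adjusted p = 0.267) and Pgm1, a phosphoglucomutase, at -0.48 (adjusted p = 0.213). The ADP-dependent glucokinase gene Adpgk followed at 0.28. Dimmer detected probes had overlapping groups, at -0.06 for Gpd2 and at -0.21 and 0.10 for Adpgk. Among 5 other sugar and lactate carriers, Slc2a6, a member of the GLUT family, was higher by 0.45 and Slc2a9, a urate carrier of the same family, was lower, with a difference of -0.81 (adjusted p = 0.216 for each). The third by p, Slc2a8, differed by 0.22. The carrier lists therefore held differences of both signs inside the GLUT family.

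The genes that bring pyruvate into the citric acid cycle had a median of -0.13 over 7 genes. Dlat, a pyruvate dehydrogenase component, differed by -0.48 (adjusted p = 0.288), and the phosphatase genes Pdp2 and Pdp1 by -0.24 and -0.25. In the pentose phosphate pathway, which branches from glycolysis to make NADPH and ribose, 11 genes had a median of -0.12. Pgls differed by -0.28 and Prps2 by -0.49, and neither passed in the fit without a variance trend. With the trend, 1 gene of this list passed as lower. G6pd2 differed by 0.54 (adjusted p = 0.254), and since it is a close copy of G6pdx, which was not analysed here, its probe may read both.

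HIF subunits and their regulators had a median of -0.07 over 14 genes, with 2 higher and 2 lower before adjustment, where 8.41% and 8.29% of all probes were. Arnt, the partner of HIF-1α, was higher by 0.46 on a dim probe (5.52 and 5.43 against 5.05 and 4.98, adjusted p = 0.209). The coactivator Ep300 was higher by 0.34 (adjusted p = 0.254). Vhl, which directs HIF-1α to the proteasome, was lower, at -0.44 (adjusted p = 0.279), and so was the ubiquitin ligase gene Siah2. Of 27 other HIF target genes, 1 was higher (8.41% of all probes were) and 3 lower (8.29% of all probes) before adjustment, and the median was -0.04. One of the lower ones, the nuclear receptor gene Rora, was detected on the pMIG arrays only, so it could enter the comparison only as lower and its direction is not a result. The others were Ak4, an adenylate kinase of mitochondria, at -0.69 (6.14 and 6.16 against 6.95 and 6.72, adjusted p = 0.174) and Car9, a carbonic anhydrase, at -0.42 (adjusted p = 0.217). Other Car9 probes, near background, differed by -0.27 and 0.07. Bhlhe40 was higher by 0.35 (adjusted p = 0.27).

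**Figure D5:**
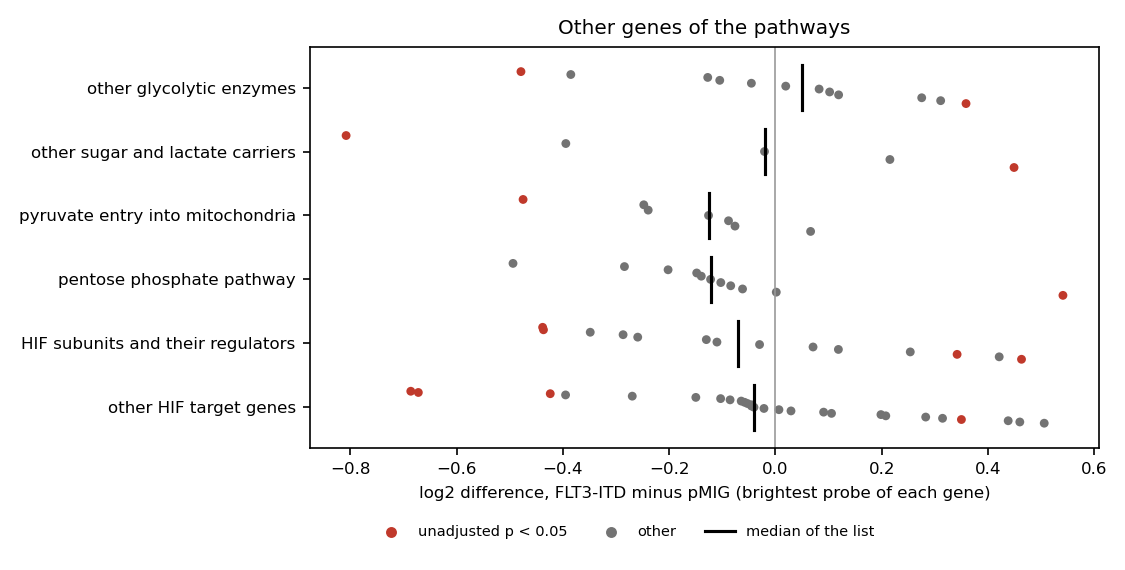
Log2 difference (FLT3-ITD minus pMIG) of each gene in 6 lists of related pathways, by its brightest detected probe; red points have an unadjusted p under 0.05 and black bars are list medians. The medians lie between -0.13 and 0.05, and every list has points on both sides of 0.

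Markers of other cell types differed between the same arrays. In bulk RNA, fewer cells of a type and less RNA per cell cannot be told apart. None of these markers passed after adjustment in the fit without a variance trend, and before adjustment 8.41% of all probes were higher and 8.29% lower. With the trend, 4.10% of all probes passed as higher and 3.82% as lower. Passing as lower were 5 of 6 mast cell and basophil, 5 of 7 platelet-lineage and 3 of 6 progenitor markers. Passing as higher were 3 dendritic, 3 B lymphoid, 2 erythroid and 2 monocyte markers. Neutrophil markers passed as higher for 4 and lower for 1, T and NK markers for 1 each way. At an unadjusted p under 0.05, 5 of 6 mast cell and basophil markers were lower (summed signal 4875 to 5016 in FLT3-ITD, 8172 to 8445 in pMIG) and 5 of 7 platelet-lineage markers were lower and 1 higher (1872 to 2117 against 2671 to 2847). Progenitor markers were lower for 3 of 6 (23140 to 23450 against 27900 to 30870). Dendritic markers were higher for 3 of 6 (11900 to 12010 against 4807 to 4994), B lymphoid markers for 4 of 4 (1396 to 1443 against 763.4 to 771.7), and neutrophil markers for 3 of 8 (123100 to 124000 against 109300 to 113500). Erythroid markers were higher for 2 of 6 (the globin genes Hba-a1 and Hbb-b1) and lower for 1, with 4 of 6 differences below 0, a median of -0.15 and sums of 4267 to 4403 against 3903 to 4241. Monocyte markers were higher for 2 of 6 (7680 to 8645 against 8181 to 8882), and T and NK markers higher for 1 of 3 and lower for 1 (3114 to 3186 against 3841 to 4480). Pax5, Alas2, Cd3e, Cd8a and Ncr1 missed the detection rule. The part of such markers in the differences of Pkm, Slc2a3, Aldoa, Vegfa, Bnip3l and Hif1a was not tested.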

How the data were processed

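Biotinylated cRNA from microprep-kit RNA was read on Illumina arrays, per the labels' protocols. The authors deposited non-normalized intensity values and a detection p-value for each probe and array, per the file headers; the sources used here name no scanner software. The authors also deposited log2 values whose making is not stated; they share 1 lowest and 1 highest value on all arrays, follow the intensities in rank, lie within 0.232 of those computed here, and served as an alternative. Intensities were corrected with normexp (limma 3.58.1, R 4.3.3, offset 16, background moments from the detection p-values), log2-transformed and quantile-normalized. Groups, set by sample titles, were compared probe by probe with limma's moderated test, two-sided, adjusted by Benjamini-Hochberg over all 14178 probes detected on 2 or more arrays; 95% intervals come from the same fit. Gene names came from the platform annotation. Every kept probe of the listed genes is described, with values per array at least where it led its role group or had p under 0.05; of the 6 other pathway lists, the 3 genes with the smallest p are named, and the 9 marker lists are given by counts and sums. Siah2 and Bhlhe40, and the promoters printed, were chosen after their values were seen. Members and lists were chosen with earlier results of these data known. The limma fit without a variance trend was tested on simulated log2 values. Their spreads were shuffled over probes, so they did not follow signal. Background correction, normalization and the detection filter were not part of that simulation. The number of arrays limits precision.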

Additional observations from a re-analysis of the deposited data

How the results depend on the processing

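Across 14 alternatives, 30 of the 35 probes passed under none. The number of all probes past the threshold was 15, all higher in FLT3-ITD, and it became 45 with the deposited log2 table, 85 with detection required on all 4 arrays (74 higher, 11 lower), 29 with median scaling (26 higher, 3 lower), 408 with an offset of 50 (276 higher, 132 lower), 963 without background correction (527 higher, 436 lower), 1123 with a variance trend (582 higher, 541 lower) and 1183 with the trend and a robust fit. In limma's default fit, 0 of the glycolysis and hypoxia probes passed (5 at an unadjusted p under 0.05). That count became 4 without background correction and 5 with either trend. All of these fits used limma. With the replicate number as a block 7 of all probes passed, and 0 of the 35; same-numbered arrays share only a number, and their deviations from the group means did not correlate (-0.015 across probes). With any 1 array left out, 0 of all probes and 0 of the 35 passed in limma, with 1565 to 1813 of all probes at an unadjusted p under 0.05, and the median difference of the 35 ran from -0.0366 without pMIG replicate 1 to 0.0117 without FLT3-ITD replicate 1. The 7 probes that changed sign lay near 0: with 1 array left out, Hk3 ran from -0.0752 to 0.0040, Pfkm (ILMN_3004553) from -0.19 to 0.14, Pfkp from -0.0477 to 0.0487 (-0.0146 with median scaling) and, on its second probe, from -0.0706 to 0.34, Tpi1 (ILMN_2932359) from -0.24 to 0.0117, Pgam1 from -0.0271 to 0.13 and P4ha1 from -0.28 to 0.15. Pkm, Slc2a3, Aldoa, Bnip3l, Hif1a and both Vegfa probes kept their sign under each alternative that held them, with adjusted p from 4.13e-05 to 0.456 for Pkm. Dim probes are limited by signal over background.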

Other observations

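Eno1, the enolase of the step before pyruvate kinase, was not analysed here. A probe of Eno1b, a copy of that gene, read 6.17 and 6.28 with FLT3-ITD against 6.31 and 6.58 with pMIG. The difference of -0.22 did not pass in limma's default fit (SE 0.15, adjusted p = 0.514, lower on both FLT3-ITD arrays). Because the transcripts are closely related, it is uncertain which gene the probe reads. Several pairs of related genes lay on opposite sides of 0, and none of these genes passed in the fit without a variance trend. The pairs were Pdk3 and Pdk1 (0.29 and -0.27), Egln1 and Egln3 (0.39 and -0.27) and Slc2a6 and Slc2a9 (0.45 and -0.81). The other kept Egln1 probe had overlapping groups and a difference of 0.31. Without background correction these Egln1 probes differed by 0.11 and 0.09. Egln3 differed by -0.05 without FLT3-ITD replicate 2. Of these genes, Pdk1, Pdk3, Egln1, Egln3 and Slc2a9 did not pass with the trend either. The HIF-1 subunit genes Arnt and Hif1a (0.46 and -0.56) were another pair, each read by a dim probe. The Hif1a difference was -0.24 without background correction and -0.29 without pMIG replicate 1. The differences within these pairs were not tested. These pairs were chosen after their values were seen.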
